A study of Mus musculus with 20 samples.

Results

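The genes described here are 37 core genes of autophagy and its cargo receptors, taken as a list of symbols from the rows of the deposited expression table. All 37 listed genes were present among the 13225 genes of the table. The list holds 5 genes of the Atg8 family, 5 cargo receptors, 5 genes of the ULK1 initiation complex, 6 of the class III phosphatidylinositol 3-kinase (PI3K) complexes, 5 of the effectors that read phosphatidylinositol 3-phosphate (PI3P) or supply lipid, 4 Atg4 proteases and 7 conjugation enzymes. No threshold on a measured value set the list, but it was chosen with earlier results of these data known.

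The study measured polyA RNA of alveolar macrophages that were sorted as CD45+SiglecF+CD11c+ cells from mouse lung, with 1 library per mouse and 20 libraries in all. Mice were wild type (WT, strain C57BL/6) or of strain B6.Cg-Mir155tm1.1Rsky/J, which lacks microRNA-155 (KO), and each genotype breathed air or cigarette smoke for 4 weeks, with 5 mice in each of the 4 groups. The design asks how smoke changes the macrophage transcriptome and whether the loss of miR-155 alters that change. The labels do not state age, sex or whether the genotypes were littermates, and each library is named below by its mouse code (Ia and Ib for WT air, IIa and IIb for WT smoke, IIIa and IIIb for KO air, IVa and IVb for KO smoke).

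Autophagy wraps cytoplasm in a double membrane, the autophagosome, which fuses with lysosomes. The ULK1 complex starts the process, a class III PI3K marks the growing membrane with PI3P, and 2 ubiquitin-like conjugation systems attach Atg8 proteins (the LC3 and GABARAP families) to it, where cargo receptors such as p62 and optineurin dock. In macrophages the pathway also clears intracellular bacteria and damaged mitochondria, and parts of it serve LC3-associated phagocytosis. Several of its proteins, p62 above all, are themselves degraded by autophagy, so mRNA levels do not measure its rate.

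The microRNA removed in the KO is shown because its seed (bases 2 to 8, in capitals) sets which transcripts it can pair with, and the windows below it hold seed matches found in the autophagy genes. The mature sequence is RefSeq's, at chr16:84714143-84714165 on the plus strand (GRCm38.p6), and the windows are 30 nucleotides of the longest annotated 3′ UTR (GENCODE M21, GRCm38) with the match in capitals.
mmu-miR-155-5p: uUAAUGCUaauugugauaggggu
Sqstm1 3′ UTR: tttagaagatgggGCATTAActtgtgtaac
Gabarapl1 3′ UTR: agcgttttggatgGCATTAAactggagttc
Atg3 3′ UTR: attatatgtttatGCATTAAataaaaactg
A 7-letter match to the seed (AGCATTA, or GCATTA followed by A) was present in 4 of the 37 autophagy genes, against 13.7% of 11282 genes with an annotated 3′ UTR. The fourth was Atg12. None of these 4 genes passed the test between genotypes in air or in smoke (values below), and a match of letters does not show that a site is used.

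Promoter windows in RefSeq (GRCm38.p6, 250 bases before to 50 after the annotated start) were matched for 31 of the 37 genes. Those of Optn and Sqstm1 are shown because these receptors moved in opposite directions under smoke in both genotypes, and that of Atg5 because it holds the CACGTG core of the CLEAR element, the sequence that TFEB and TFE3 bind in lysosomal genes. Capitals mark CACGTG, TGACNNNGC (a core of the antioxidant response element bound by NRF2) or GGGCGG (a GC box), on either strand. The windows are chr2:5064068-5064367 on the minus strand for Optn, chr11:50210771-50211070 on the minus strand for Sqstm1 and chr10:44268089-44268388 on the plus strand for Atg5.
Optn: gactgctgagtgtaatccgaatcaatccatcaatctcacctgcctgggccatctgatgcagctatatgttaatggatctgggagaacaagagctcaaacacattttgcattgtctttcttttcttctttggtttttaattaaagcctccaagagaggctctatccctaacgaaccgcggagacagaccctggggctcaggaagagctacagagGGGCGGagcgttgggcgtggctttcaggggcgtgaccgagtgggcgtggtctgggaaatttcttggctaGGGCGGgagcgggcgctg
Sqstm1: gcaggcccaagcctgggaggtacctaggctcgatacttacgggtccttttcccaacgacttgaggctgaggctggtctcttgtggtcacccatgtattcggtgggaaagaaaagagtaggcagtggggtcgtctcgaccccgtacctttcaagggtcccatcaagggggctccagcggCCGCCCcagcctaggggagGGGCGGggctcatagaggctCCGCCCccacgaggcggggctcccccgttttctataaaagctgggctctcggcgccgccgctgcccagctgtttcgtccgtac
Atg5: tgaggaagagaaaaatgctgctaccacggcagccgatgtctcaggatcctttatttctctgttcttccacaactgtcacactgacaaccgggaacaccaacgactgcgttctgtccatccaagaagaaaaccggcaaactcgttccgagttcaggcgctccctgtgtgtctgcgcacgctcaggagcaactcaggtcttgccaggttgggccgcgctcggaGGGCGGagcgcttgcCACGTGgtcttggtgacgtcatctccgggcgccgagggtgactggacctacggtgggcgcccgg
A gene was counted if any of its windows held the match, and some genes had more than a single window. The background shares count windows instead, and were not limited to measured genes, so the shares are not like for like. CACGTG was found in 4 of the 31 genes (Atg14, Atg3, Atg5 and Atg7), against 7.15% of all 32851 windows, and the full CLEAR element in 0 of 31, against 0.326%. TGACNNNGC was found in 4 (Atg13, Map1lc3b, Tax1bp1 and Ulk2), against 12.4%, and TGTTTAC (a FOXO site) in 0, against 3.65%. The GC box was found in 22 of 31, against 35.7%. The 3 genes that passed the smoke test in both genotypes (Gabarap, Optn and Sqstm1) carried neither CACGTG, the CLEAR element, TGACNNNGC nor TGTTTAC in these windows. These searches describe letters in a fixed window, and the absence of a match says nothing of the factor.

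Libraries held 6885680 to 11952088 reads over all genes measured, and Pearson correlations between libraries over the same genes ran from 0.88 to 0.97. KO air libraries IIIb2, IIIb3 and IIIb4 stood apart with 1645, 1524 and 1451 genes without a read, against 259 to 1224 in the other 17. The sort label was borne out by the markers: 11 of 12 listed alveolar macrophage symbols (Marco, Chil3, Fabp4, Pparg and others) were measured and summed to 22830 to 29050 CPM (reads scaled to library size) in every library. The sum covers genes that moved both ways with smoke. By the test used below, 2 rose and 4 fell in WT (54.5% called, against 22.4% of all genes). In KO 3 rose and 4 fell (63.6%, against 15.5%). The row of the miR-155 host gene, Mir155hg, held 0 to 1 reads in WT air, 0 to 21 in WT smoke, 0 to 15 in KO air and 0 to 5 in KO smoke, a level too low to check the genotype labels, and which part of it the allele removes is not given. In bulk RNA of sorted cells, fewer cells that carry a transcript and less of it per cell cannot be told apart.

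The autophagy genes were moderately to highly expressed. Mean log2 CPM placed 30 of 37 above the median gene, and the fewest reads that any of them had in a library was 27. Scaled by the length of the longest coding transcript, Gabarap was the most abundant at 409 ± 43.7 CPM per kb (mean ± SD, 20 libraries), followed by Sqstm1 at 207 ± 32.3. Tax1bp1 (70.3 ± 5.76), Gabarapl1 (68.1 ± 8.99) and Map1lc3b (66.8 ± 5.08) came next, all in CPM per kb and within their spread of each other. In all, 22 genes lay between 10 and 100 CPM per kb and 13 lay under 10, with Atg4d (3.44 ± 0.601) and Atg16l2 (2.91 ± 0.705) lowest. Gabarap alone made up 56.7 to 65.6% of the reads of the Atg8 family. Exact or near-identical copies of, or overlaps with, other annotated genes make some values uncertain where the counting could not separate them: besides those named with their gene below, Rb1cc1 and Atg14 have antisense partners (4732440D04Rik and Gm49004), Atg2b overlaps Gskip, Atg9a and Gabarapl1 share sequence with Gm29253 (1073 nucleotides) and 1700101I11Rik (379 nucleotides), and Uvrag holds repeat sequence. Together the 37 genes took 0.322 to 0.358% of each library's reads.

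**Figure D1:**
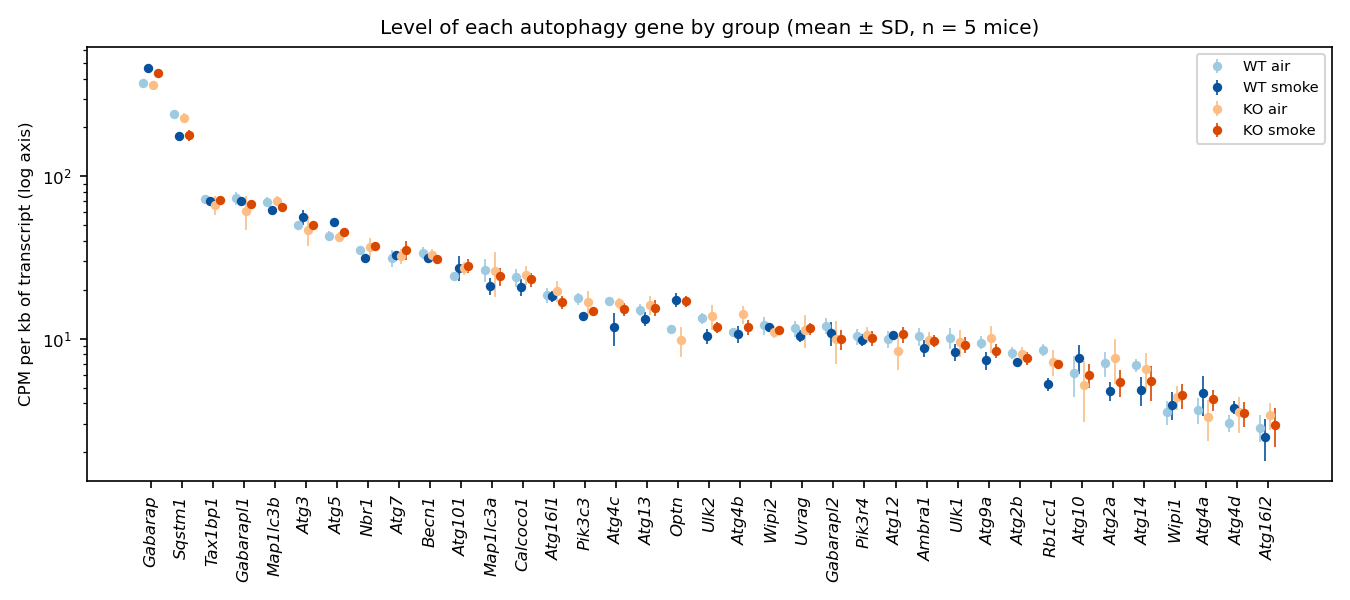
Level of each of the 37 autophagy genes in the 4 groups, in CPM per kb of the longest coding transcript on a log axis; points are group means and bars the SD over 5 mice. Gabarap and Sqstm1 are the only genes above 100 CPM per kb, and the order of the genes is much the same in the 4 groups.

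Under smoke 3 of the 37 autophagy genes rose and 8 fell in WT macrophages. Gabarap, Optn and Atg5 rose, and Sqstm1, Rb1cc1, Atg4c, Ulk2, Pik3c3, Atg2a, Atg9a and Atg14 fell, all by less than 2-fold. In KO macrophages 3 of the same genes passed: Optn and Gabarap rose and Sqstm1 fell. The test was limma on log2 CPM with Benjamini-Hochberg adjustment over all 13225 genes and a threshold of 0.05 on the adjusted p.

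The 11 of 37 called in WT (29.7%) stand against 22.4% of all genes. By direction, 3 of 37 rose against 9.66% of all genes and 8 of 37 fell against 12.8%. In KO the 3 of 37 (8.11%) stand against 15.5% of all genes, with 2 higher against 7.05% and 1 lower against 8.45%. The median change over the 37 genes was -0.15 in WT (log2) against -0.02 over all genes, and 26 of 37 were negative. It was -0.07 against -0.02 after quantile normalization, and -0.07 against -0.04 with the trend on transcript length removed. In KO it was -0.03 against -0.01, and 0.02 after quantile normalization. Without KO air mouse IIIa5 the KO count was 6, since Atg4b, Gabarapl1 and Atg12 then passed. Values of the smoke and air mice did not overlap for 9 of 37 genes in WT, against 18.1% of all genes, and for 3 of 37 in KO, against 9.88%. All 11 genes called in WT had the same sign in KO, and 10 of them had a smaller difference there. These 11 were picked for passing in WT, which favours large WT values, and no matching count was made over all genes. The count of 10 therefore does not show a weaker response in KO. The difference in size is tested gene by gene further on.

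Some markers of other cells moved with smoke as well. The 6 measured of 10 neutrophil genes (S100a8, S100a9, Csf3r, Cxcr2, Mmp8 and Ltf) summed to 91.3 to 129 CPM in WT air and 159 to 359 CPM in WT smoke, and to 86.8 to 136 and 140 to 314 CPM in KO, with 3 of the 6 higher and 1 lower by the test in each genotype. Of 6 eosinophil genes only Ear1 and Ear6 were measured, and their sum was 429 to 502 CPM in WT air, 210 to 347 CPM in WT smoke, 379 to 625 CPM in KO air and 200 to 263 CPM in KO smoke. These 2 genes moved oppositely: Ear1 fell by 2.05 in WT and 2.07 in KO on the log2 scale, and Ear6 rose by 2.87 and 3.24. The 10 measured of 14 monocyte and interstitial macrophage genes summed to 103 to 137 CPM in WT air and 104 to 276 CPM in WT smoke, with 4 higher and 1 lower by the test, and 5 of 8 dendritic cell genes, 1 of them higher, to 14.3 to 26.8 and 24.7 to 37.6 CPM. The same 2 lists summed to 112 to 144 and 11.3 to 22.3 CPM in KO air and to 90.1 to 114 and 17.98 to 28.1 CPM in KO smoke, with 2 higher and 2 lower in the first list and 1 higher in the second. Epithelial genes (6 of 10) summed to 121 to 210 CPM over all groups, a sum over genes that moved both ways: Epcam fell (log2 difference -2.13 in WT and -1.64 in KO), Cdh1 rose by 0.59 and 0.41, and Hopx rose by 1.53 in WT. The T and NK, B, and endothelial and stromal lists had at most 2.87 CPM in any library. The part of these cells in the autophagy values was not tested.

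**Figure D2:**
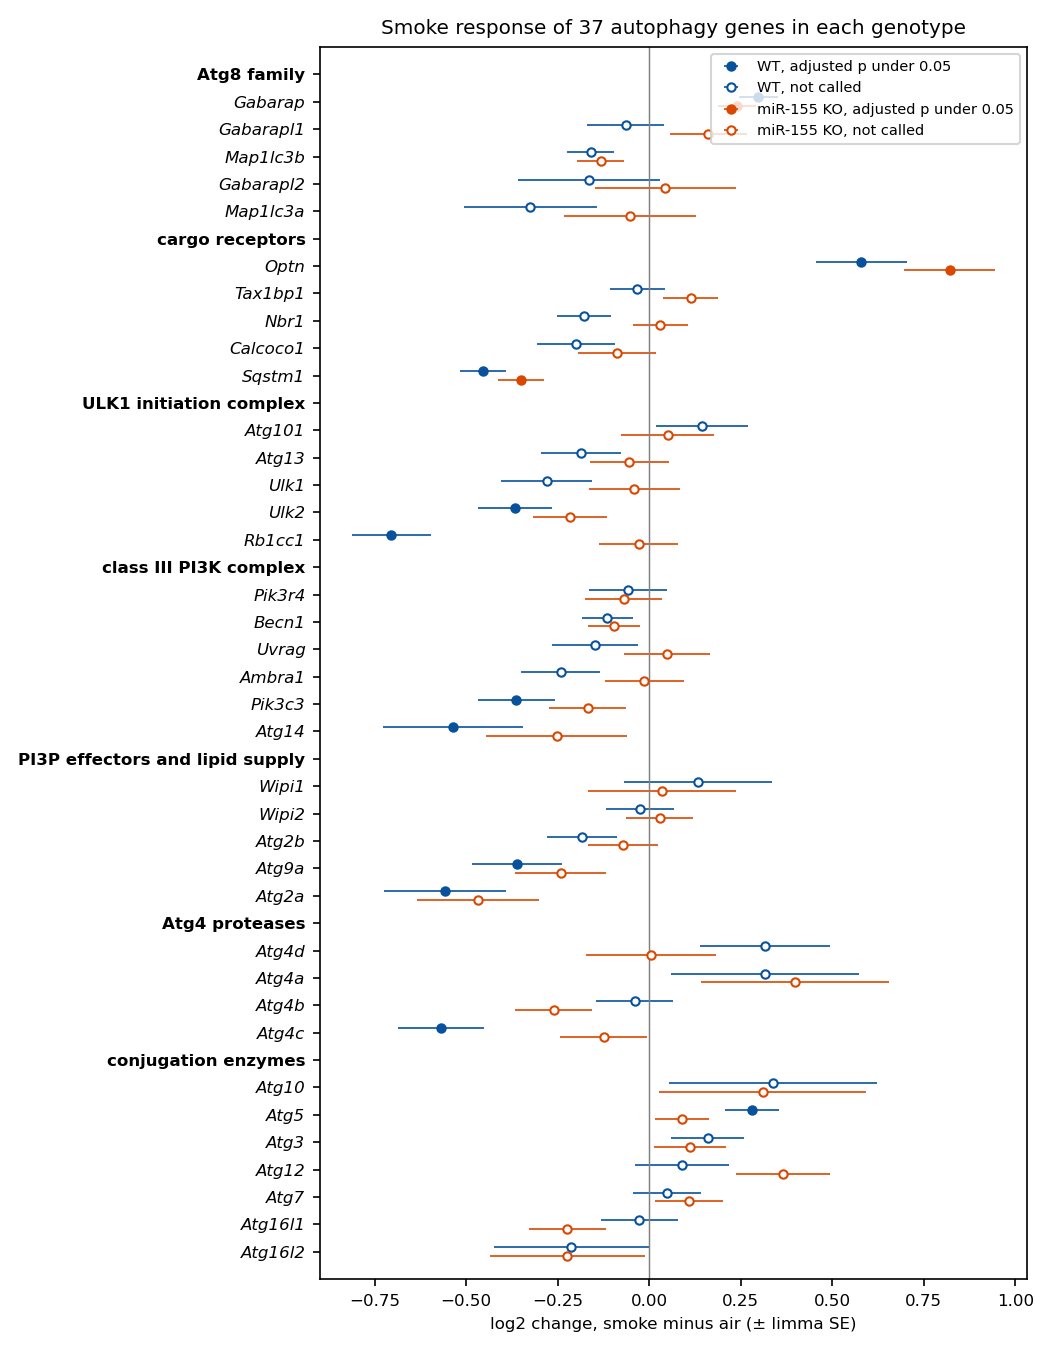
Log2 change from air to smoke, with the limma standard error, of the 37 autophagy genes grouped by role, for WT (blue) and miR-155 KO (orange); filled points passed an adjusted p of 0.05. Filled points are 11 in WT and 3 in KO, with Optn farthest to the right (0.58 and 0.82) and WT Rb1cc1 farthest to the left (-0.70).

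In the Atg8 family, Gabarap rose in both genotypes and the other 4 genes did not pass the test. Gabarap (chr11:69991143-69994951, plus strand, GRCm38) encodes a small ubiquitin-like protein that is anchored in the autophagosome membrane. Gabarap stood at 9.02, 9.03, 8.92, 8.94 and 9.04 log2 CPM in the 5 WT air mice and at 9.27, 9.34, 9.29, 9.29 and 9.27 in the 5 WT smoke mice. The KO values were 9.0, 8.90, 8.91, 9.01 and 8.91 in air and 9.22, 9.24, 9.26, 9.12 and 9.09 in smoke. Each smoke mouse was above each air mouse of its genotype, and every KO smoke mouse was below every WT smoke mouse. The WT change was 0.30 ± 0.05 (SE) on the log2 scale, a 1.23-fold rise (limma adjusted p = 9.52e-05). The KO change was 0.24 ± 0.05, a 1.18-fold rise (limma adjusted p = 0.00166). The difference of the 2 responses was -0.06 with a 95% interval of -0.21 to 0.09 (limma adjusted p = 0.844).

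Gabarap's share of the family's reads was 57.0 to 59.7% in WT air and 64.8 to 65.6% in WT smoke. In KO it was 56.7 to 60.9% in air and 62.6 to 64.2% in smoke. Map1lc3b, the LC3 gene most used as an autophagosome marker, had a log2 difference of -0.16 ± 0.06 in WT (limma adjusted p = 0.0746) and -0.13 ± 0.06 in KO (limma adjusted p = 0.176); the WT value passed without mouse Ib2 (-0.19, limma adjusted p = 0.0401). The log2 ratio of Gabarap to Map1lc3b was 1.38 to 1.55 in WT air and 1.84 to 2.02 in WT smoke. It was 1.29 to 1.52 in KO air and 1.70 to 1.89 in KO smoke, so the ranges of smoke and air mice did not meet in either genotype. Gabarap alone already separated these mice, so the ratio is not a further test. Map1lc3a, Gabarapl1 and Gabarapl2 had log2 differences of -0.32, -0.06 and -0.16 in WT and of -0.05, 0.16 and 0.04 in KO, with adjusted p from limma of 0.218 or more. Gabarapl2 shares 96.6 to 99.4% identity with processed pseudogenes (Gm3724, Gm5829 and Gm6051), so its value is uncertain.

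The cargo receptors split: Optn rose and Sqstm1 fell, in both genotypes. Optn (chr2:5020642-5064051, minus strand) encodes optineurin, which links ubiquitin-coated bacteria and mitochondria to Atg8 proteins. In log2 CPM, Optn was at 4.86, 5.0, 4.97, 4.95 and 4.80 in WT air and at 5.53, 5.53, 5.58, 5.60 and 5.22 in WT smoke. In KO mice it was at 4.89, 4.38, 5.04, 4.48 and 4.48 in air and at 5.52, 5.48, 5.48, 5.60 and 5.30 in smoke. Smoke and air mice did not overlap in either genotype, and WT smoke mouse IIb3 was the lowest of its group. In KO air, mice IIIa5 and IIIb2 were higher than IIIb1, IIIb3 and IIIb4. Optn rose by 0.58 ± 0.12 in WT, which is 1.5-fold (limma adjusted p = 0.000901), and by 0.82 ± 0.12 in KO, which is 1.77-fold (limma adjusted p = 2.04e-05). The responses differed by 0.24, with a 95% interval of -0.12 to 0.60 (limma adjusted p = 0.686). Optn made up 2.0 to 3.01% of the receptors' reads in the air mice and 3.95 to 5.00% in the smoke mice of both genotypes.

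Sqstm1 (chr11:50199366-50210827, minus strand) encodes p62, the receptor that gathers ubiquitinated cargo into bodies, and is also a target gene of NRF2. Levels of Sqstm1 were 9.37, 9.22, 9.42, 9.30 and 9.39 log2 CPM in WT air against 8.78, 8.96, 8.85, 8.94 and 8.89 in WT smoke, and 9.40, 9.16, 9.25, 9.31 and 9.16 in KO air against 9.01, 8.90, 9.04, 8.78 and 8.81 in KO smoke. Every smoke mouse lay below every air mouse of its genotype. Sqstm1 fell by 0.45 ± 0.06 in WT, to 0.73 of the air level (limma adjusted p = 3.81e-06), the smallest p of the 37 genes. In KO it fell by 0.35 ± 0.06, to 0.785 of the air level (limma adjusted p = 0.00021). The responses differed by 0.10, with a 95% interval of -0.08 to 0.29. Its share of the receptors' reads was 52.1 to 59.9% in air mice and 44.8 to 50.9% in smoke mice. Sqstm1 shares 583 nucleotides with the overlapping gene Mrnip, and whether the counting used strand is not given.

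**Figure D3:**
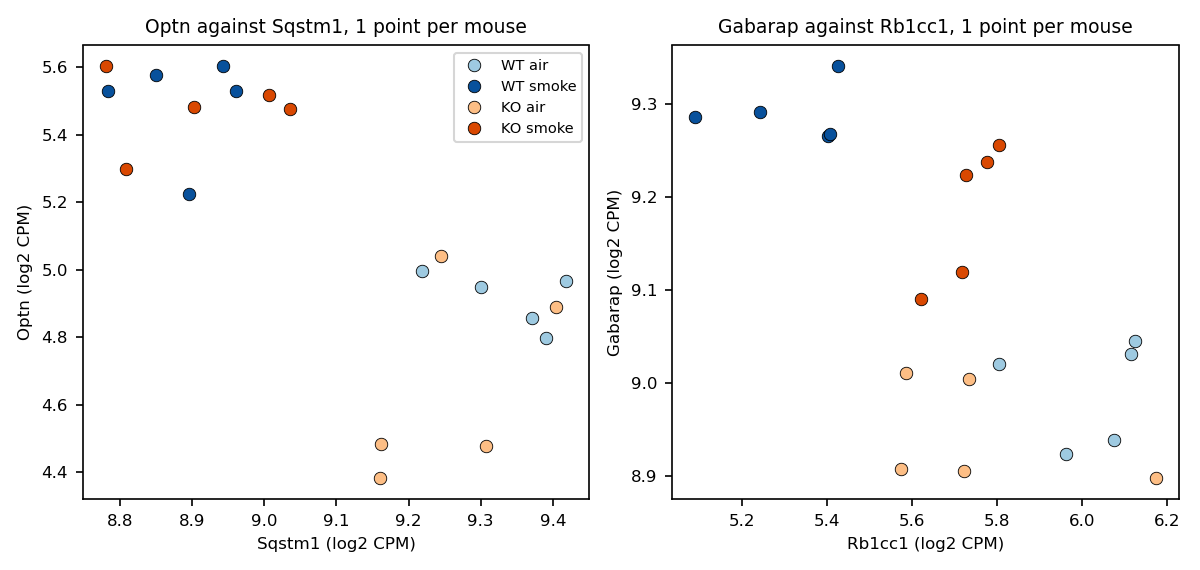
Optn against Sqstm1 (left) and Gabarap against Rb1cc1 (right), both axes in log2 CPM, 1 point per mouse coloured by group. In the left panel the 10 smoke mice lie at or above 5.22 in Optn and at or below 9.04 in Sqstm1, apart from the 10 air mice; in the right panel the WT smoke mice have the lowest Rb1cc1 levels (5.09 to 5.42).

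Of the other receptors none passed. Nbr1, a p62-like receptor with a role in clearing ubiquitinated cargo and peroxisomes, was at 7.32 to 7.52 log2 CPM in WT air and 7.14 to 7.30 in WT smoke, ranges that did not overlap. It had a log2 difference of -0.18 ± 0.07 in WT (limma adjusted p = 0.0877) and 0.03 ± 0.07 in KO (limma adjusted p = 0.846). Tax1bp1, a receptor related to NDP52, had log2 differences of -0.03 and 0.11. Calcoco1, a receptor for the endoplasmic reticulum (ER) and Golgi, had log2 differences of -0.20 and -0.09, with limma adjusted p of 0.193 or more for both genes.

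Of the ULK1 initiation complex, Rb1cc1 and Ulk2 fell in WT, and none of the 5 genes passed in KO (limma, 1 at unadjusted p under 0.05). Rb1cc1 (chr1:6206197-6276648, plus strand) encodes FIP200, the large scaffold on which the kinase, Atg13 and Atg101 assemble. Rb1cc1 stood at 5.81, 6.12, 5.96, 6.08 and 6.12 log2 CPM in the 5 WT air mice and at 5.40, 5.42, 5.24, 5.09 and 5.41 in the 5 WT smoke mice. The KO values were 5.73, 6.17, 5.57, 5.58 and 5.72 in air and 5.73, 5.78, 5.81, 5.72 and 5.62 in smoke. The WT smoke mice were the lowest of the 4 groups, below each WT air mouse and below each KO smoke mouse. KO air mouse IIIb1 was high, at the level of the top WT air mice, and the other 4 KO air mice overlapped the KO smoke mice. Rb1cc1 fell by 0.70 ± 0.11 in WT, to 0.614 of the air level (limma adjusted p = 1.38e-05), and the KO difference was -0.03 ± 0.11 (limma adjusted p = 0.904). The difference of the responses was 0.68 ± 0.15, with a 95% interval of 0.36 to 0.99. Its unadjusted limma p was the smallest of this test among the autophagy genes, at 0.000124, and it did not pass after adjustment over all genes (limma adjusted p = 0.117). Without WT smoke mouse IIa5 or without KO air mouse IIIb1 it did pass (limma adjusted p = 0.0445 and 0.0314). It missed with each of the other 18 mice left out (limma adjusted p up to 0.266). Without KO air mice IIIb2, IIIb3 and IIIb4, only IIIa5 and the high IIIb1 remained in that group. The KO difference with smoke was then -0.23 and the difference of the responses 0.48 (limma adjusted p = 0.328 and 0.473). The difference between KO and WT in air moved from -0.26 to -0.06.

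Ulk2 encodes 1 of the 2 kinases of the complex and was its most highly expressed gene by log2 CPM. In log2 CPM, Ulk2 was at 6.35, 6.20, 6.29, 6.10 and 6.35 in WT air and at 5.96, 6.10, 5.73, 5.80 and 5.86 in WT smoke. In KO mice it was at 6.20, 6.12, 6.05, 6.44 and 6.64 in air and at 6.21, 6.02, 5.93, 6.05 and 6.15 in smoke. WT smoke and air mice came close without overlapping, and the KO groups overlapped. Ulk2 fell by 0.37 ± 0.10 in WT, to 0.775 of the air level (limma adjusted p = 0.00866), and had a log2 difference of -0.22 ± 0.10 in KO (limma adjusted p = 0.159). Its paralog Ulk1 had log2 differences of -0.28 in WT and -0.04 in KO (limma adjusted p = 0.112 and 0.884). Atg13, which links the kinase to FIP200, and Atg101, which stabilizes Atg13, had log2 differences of -0.19 and 0.14 in WT and of -0.05 and 0.05 in KO.

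Of the class III PI3K complexes, the catalytic subunit Pik3c3 and the autophagy-specific subunit Atg14 fell in WT, and all 6 genes had negative values there. None of the 6 passed in KO, and none was at an unadjusted limma p under 0.05. Pik3c3 encodes Vps34, the enzyme that makes PI3P. Levels of Pik3c3 were 5.80, 5.89, 5.94, 5.65 and 5.94 log2 CPM in WT air against 5.42, 5.45, 5.42, 5.58 and 5.53 in WT smoke, and 5.78, 5.79, 5.75, 5.34 and 6.09 in KO air against 5.54, 5.68, 5.59, 5.56 and 5.54 in KO smoke. WT smoke mice were all below WT air mice. In KO air, mouse IIIb4 was the highest and IIIb3 the lowest of all KO mice, so the KO groups overlapped. Pik3c3 fell by 0.36 ± 0.11 in WT, to 0.777 of the air level (limma adjusted p = 0.0124), and had a log2 difference of -0.17 ± 0.11 in KO (limma adjusted p = 0.315).

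Atg14 directs the complex to the sites where autophagosomes form. It was at 4.54, 4.53, 4.76, 4.80 and 4.76 log2 CPM in WT air and 4.17, 4.23, 3.57, 4.35 and 4.37 in WT smoke, without overlap, and mouse IIb1 was far below the other smoke mice. It fell by 0.54 ± 0.19 (limma adjusted p = 0.0421). Without IIb1 its change was -0.39 (limma adjusted p = 0.159), and it also missed the threshold when Ia3, Ib1, Ib2, Ib4 or IIa1 was left out. In KO the difference was -0.25 ± 0.19 (limma adjusted p = 0.417).

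Becn1, the beclin 1 subunit that binds regulators such as Bcl2, was the most highly expressed gene of the complex by log2 CPM. Becn1 stood at 7.16, 7.13, 7.07, 7.34 and 7.32 log2 CPM in the 5 WT air mice and at 7.21, 7.02, 7.14, 7.05 and 7.02 in the 5 WT smoke mice. The KO values were 7.04, 7.19, 7.12, 7.13 and 7.35 in air and 7.08, 7.03, 7.12, 7.08 and 7.03 in smoke. The 4 groups overlapped. The difference was -0.11 ± 0.07 in WT and -0.10 ± 0.07 in KO (limma adjusted p = 0.271 and 0.398), and its transcript overlaps that of Cntd1 over 1299 nucleotides. In WT and KO in that order, log2 differences were -0.06 and -0.07 for the scaffold kinase Pik3r4, -0.15 and 0.05 for the endosomal subunit Uvrag, and -0.24 and -0.01 for the regulator Ambra1, none of which passed.

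Of the PI3P effectors and lipid suppliers, Atg2a and Atg9a fell in WT, and none of the 5 passed in KO (limma, 1 at unadjusted p under 0.05). Atg2a encodes a lipid transfer protein that bridges the ER and the growing membrane. It was at 5.72, 5.23, 5.67, 5.59 and 5.16 log2 CPM in WT air and 4.80, 4.70, 4.88, 5.20 and 5.01 in WT smoke, where mouse IIb2 of the smoke group lay just above the lowest air mouse. It fell by 0.56 ± 0.17 in WT (limma adjusted p = 0.0152), and its KO difference of -0.47 ± 0.17 missed the threshold (limma adjusted p = 0.0564) but passed without KO air mouse IIIb2 or IIIb4 (0.0426 and 0.0247).

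Atg9a encodes the transmembrane scramblase of the vesicles that seed autophagosomes. It was at 5.32, 5.28, 5.52, 5.17 and 5.27 log2 CPM in WT air and 4.95, 4.84, 5.23, 4.76 and 4.99 in WT smoke, with mouse IIb1 inside the air range. It fell by 0.36 ± 0.12 in WT (limma adjusted p = 0.0344), a call lost without Ia3, Ia4, Ib1, IIa1, IIa5 or IIb2 (limma adjusted p up to 0.101, without IIb2). In KO it had a log2 difference of -0.24 ± 0.12 (limma adjusted p = 0.204).

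Wipi2, which binds PI3P and recruits Atg16l1, was the most highly expressed of these 5 genes by log2 CPM. In log2 CPM, Wipi2 was at 5.81, 6.21, 6.09, 5.82 and 5.88 in WT air and at 6.04, 5.82, 5.88, 5.94 and 6.0 in WT smoke. In KO mice it was at 5.99, 5.73, 5.74, 5.95 and 5.76 in air and at 5.91, 5.94, 5.87, 5.78 and 5.80 in smoke. The groups overlapped. The difference was -0.02 ± 0.09 in WT and 0.03 ± 0.09 in KO (limma adjusted p = 0.893 and 0.886). Wipi1 and Atg2b had log2 differences of 0.13 and -0.18 in WT and of 0.04 and -0.07 in KO, and none of these passed.

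Among the Atg4 proteases, which trim Atg8 proteins before conjugation and release them later, only Atg4c fell in WT, and none passed in KO (limma, 1 at unadjusted p under 0.05). Levels of Atg4c were 5.75, 5.67, 5.73, 5.88 and 5.78 log2 CPM in WT air against 4.92, 5.67, 4.88, 5.32 and 5.18 in WT smoke, and 5.58, 5.78, 5.84, 5.63 and 5.74 in KO air against 5.62, 5.56, 5.71, 5.68 and 5.38 in KO smoke. Of the WT smoke mice, IIa5 reached the bottom of the air range and the other 4 lay below it, and the WT smoke values were spread more widely than those of any other group. Atg4c fell by 0.57 ± 0.12 in WT, to 0.674 of the air level (limma adjusted p = 0.000641), and had a log2 difference of -0.12 ± 0.12 in KO (limma adjusted p = 0.537). The responses differed by 0.44 ± 0.17, at an unadjusted p of 0.013 and a limma adjusted p of 0.361.

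Atg4b, the protease with the broadest activity on Atg8 proteins, was the most highly expressed of the 4 by log2 CPM. Atg4b stood at 5.43, 5.49, 5.53, 5.53 and 5.57 log2 CPM in the 5 WT air mice and at 5.32, 5.70, 5.32, 5.55 and 5.47 in the 5 WT smoke mice. The KO values were 5.62, 5.93, 6.08, 6.0 and 5.73 in air and 5.78, 5.44, 5.66, 5.73 and 5.45 in smoke. Every KO air mouse was above every WT air mouse, and the smoke groups overlapped with each other. Its log2 difference with smoke was -0.04 ± 0.11 in WT and -0.26 ± 0.11 in KO (limma adjusted p = 0.849 and 0.0948). Atg4a and Atg4d had log2 differences of 0.32 and 0.32 in WT and of 0.40 and 0.01 in KO, with SE of 0.26 and 0.18. Atg4a has a near copy (Atg4a-ps, 99.3% identity) and Atg4d overlaps Kri1, so both values are uncertain.

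Of the 7 conjugation enzymes Atg5 rose in WT, and none passed in KO (limma, 2 at unadjusted p under 0.05). Atg5 (chr10:44268358-44364291, plus strand) is joined to Atg12, and the pair with Atg16l1 places Atg8 proteins on lipid. In log2 CPM, Atg5 was at 6.55, 6.79, 6.74, 6.67 and 6.54 in WT air and at 6.95, 6.88, 6.85, 6.96 and 7.06 in WT smoke. In KO mice it was at 6.59, 6.51, 6.68, 6.77 and 6.64 in air and at 6.75, 6.77, 6.84, 6.64 and 6.64 in smoke. All WT smoke mice were above all WT air mice and above all KO smoke mice. Atg5 rose by 0.28 ± 0.07 in WT, which is 1.22-fold (limma adjusted p = 0.00531), and had a log2 difference of 0.09 ± 0.07 in KO (limma adjusted p = 0.457). The responses differed by -0.19, with a 95% interval of -0.40 to 0.02 (limma adjusted p = 0.566).

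Atg7, the E1-like enzyme that activates both Atg8 proteins and Atg12, was the most highly expressed of the 7 by log2 CPM. Levels of Atg7 were 6.92, 7.10, 6.68, 7.11 and 6.88 log2 CPM in WT air against 6.98, 6.84, 6.94, 7.06 and 7.11 in WT smoke, and 6.93, 6.93, 6.84, 7.23 and 6.95 in KO air against 7.27, 7.01, 7.31, 6.89 and 6.94 in KO smoke. Its groups overlapped, and its log2 differences were 0.05 ± 0.09 in WT and 0.11 ± 0.09 in KO (limma adjusted p = 0.776 and 0.484). Atg12 had log2 differences of 0.09 in WT and of 0.37 ± 0.13 in KO, just short of the threshold (limma adjusted p = 0.0516). Atg12 passed in KO when mouse Ib1, IIIa5, IIIb1, IVa5 or IVb4 was left out, with differences of 0.37 to 0.47. Atg3, the E2-like enzyme for Atg8 proteins, and Atg10, that for Atg12, had log2 differences of 0.16 and 0.34 in WT and of 0.11 and 0.31 in KO. Atg16l1 and its homolog Atg16l2 had log2 differences of -0.03 and -0.21 in WT and of -0.22 and -0.22 in KO.

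**Figure D4:**
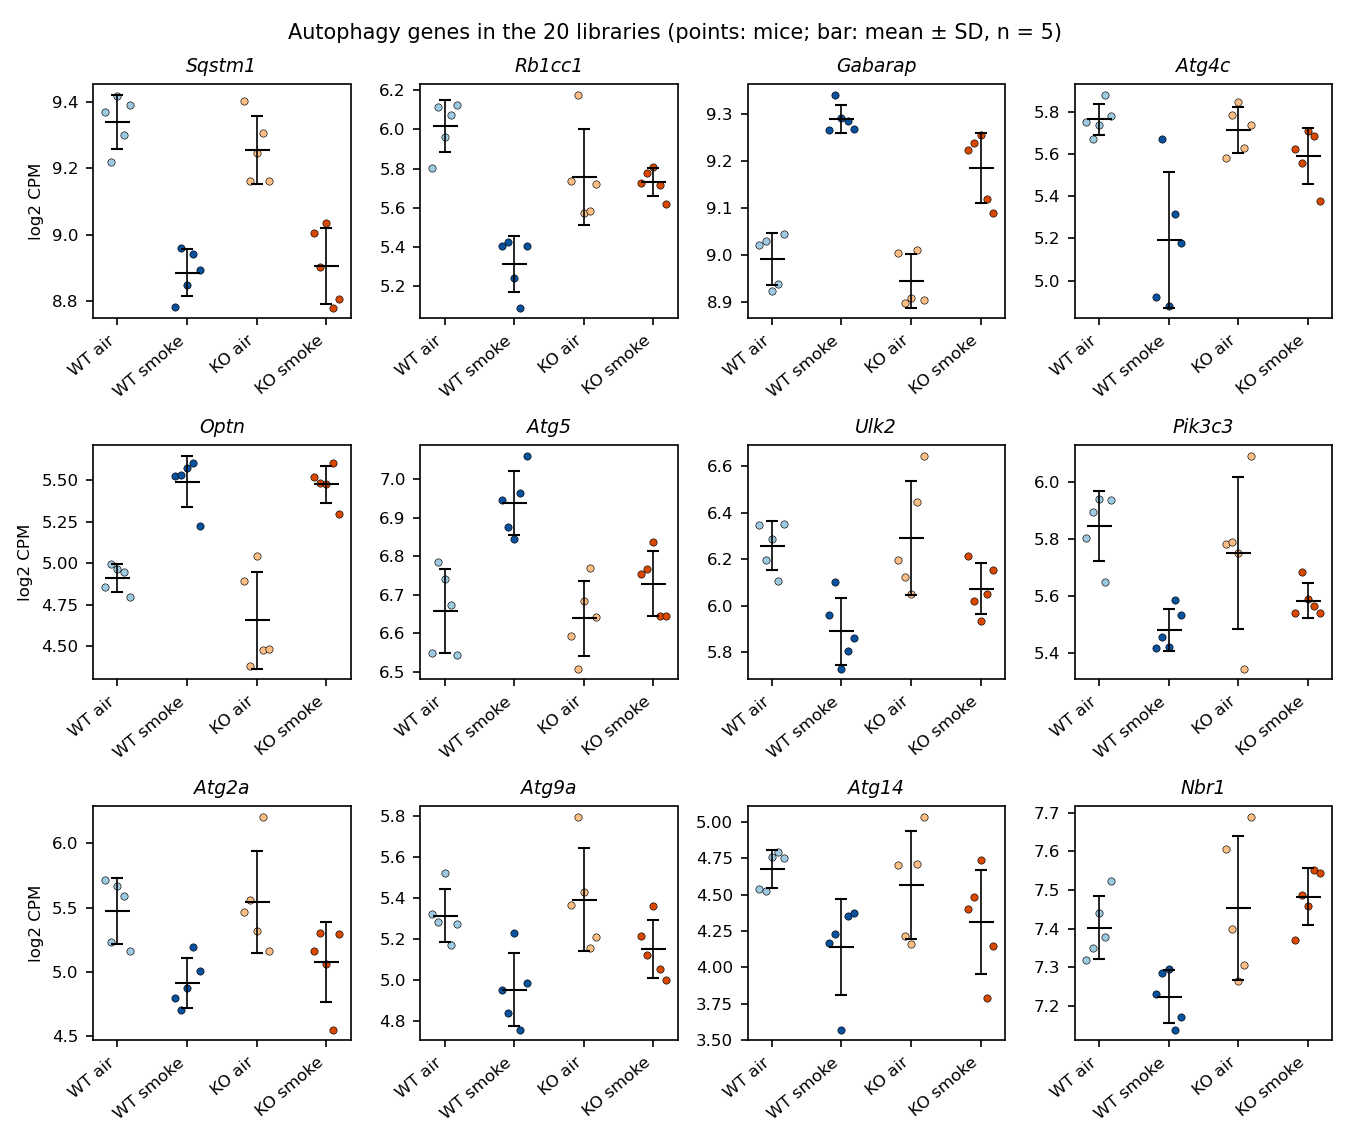
Log2 CPM per mouse of the 11 autophagy genes that passed the WT smoke test, ordered by p, and of Nbr1, whose WT groups do not overlap but which missed the threshold; bars are mean and SD of 5 mice, and each panel has its own vertical range. In Sqstm1, Gabarap and Optn smoke separates from air in both genotypes, while in Rb1cc1 only WT smoke is low.

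Between genotypes in air, 0 of the 37 autophagy genes passed (limma, 5 at unadjusted p under 0.05), against 0.416% of all genes. The WT and KO air mice did not overlap for 1 gene, Atg4b, against 1.83% of all genes. Atg4b was higher in KO air by 0.36 ± 0.11 (limma adjusted p = 0.135), and it and Gabarapl1, at -0.28 (limma adjusted p = 0.277), passed when KO air mouse IIIa5 was left out (0.42 and -0.40, limma adjusted p = 0.0455 and 0.0225). Atg4b missed with each of the other 19 mice left out and under all 14 other settings. In 1 of these, without KO air mice IIIb2, IIIb3 and IIIb4, Atg4b differed by 0.27 (limma adjusted p = 0.703). Among the genes with a miR-155 seed match other than Gabarapl1, Sqstm1 differed by -0.08, Atg3 by -0.12 and Atg12 by -0.27 (limma adjusted p = 0.644, 0.674 and 0.418). The KO air mice varied more than the other groups: the median within-group SD of the 37 genes was 0.245 log2 units there and 0.135 to 0.144 in the other 3. This was not particular to the autophagy genes. Over the 8619 genes in the same range of level, the median was 0.235 in KO air and 0.164 to 0.168 in the others.

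Between genotypes in smoke, 1 of 37 passed, against 1.58% of all genes. It was Rb1cc1, higher in KO smoke by 0.42 ± 0.11 (limma adjusted p = 0.0399), at 5.62 to 5.81 log2 CPM in KO smoke and 5.09 to 5.42 in WT smoke. This call was lost when any 1 of 10 mice was left out (Ib2, IIa1, IIb1, IIb2, IIb3 or any KO smoke mouse), with limma adjusted p up to 0.138. Values of the smoke mice of the 2 genotypes did not overlap for 4 of 37 genes, against 4.24% of all genes: Rb1cc1, Nbr1 (higher in KO by 0.26, limma adjusted p = 0.0731), Atg5 (-0.21, limma adjusted p = 0.155) and Gabarap (-0.10, limma adjusted p = 0.391). Nbr1 passed without KO air mouse IIIb4 (limma adjusted p = 0.0463), and Atg4c, higher in KO by 0.40 (limma adjusted p = 0.0881), passed without WT smoke mouse IIa5 (0.52, limma adjusted p = 0.00654). The genes with a seed match differed by 0.02 (Sqstm1), -0.06 (Gabarapl1), -0.17 (Atg3) and 0.00 (Atg12). These comparisons share their WT smoke or KO smoke mice with the smoke comparisons above. Over all genes the 118 higher and 91 lower calls became 197 and 69 after each library was centred on its median.

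The test of whether the smoke response itself differed between genotypes called 0 of the 37 genes and 0% of all 13225 (limma, 2 of the 37 and 1302 of all genes at unadjusted p under 0.05). The 2 were Rb1cc1 and Atg4c, given above. So the smoke responses of the 8 genes called in WT alone are not shown to differ from those in KO.

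Transcript length moved with the smoke response in WT. Over coding genes whose mean log2 CPM reached 3, the median WT change was 0.14 for transcripts up to 1500 nucleotides and -0.19 for those over 5000, while in KO the same medians were 0.01 and -0.08. The autophagy genes had longest coding transcripts of 1112 to 7607 nucleotides, and all 8 that fell in WT were in the classes above 2500, while the 3 that rose were in the classes up to 3500. With the trend on length removed, 9 of 37 passed in WT. Ulk2 (-0.26), Atg2a (-0.43), Atg9a (-0.32) and Atg14 (-0.52) then missed the threshold, with limma adjusted p of 0.0749, 0.0931, 0.0684 and 0.0536, while Map1lc3a (-0.49) and Map1lc3b (-0.19) passed, with 0.0438 and 0.0299. Rb1cc1 stayed called in WT (-0.54), but its difference between the genotypes in smoke was then 0.31 (limma adjusted p = 0.21). Gabarap, with a transcript of 1351 nucleotides, stayed called in both genotypes. Its rise was then 0.15 in WT and 0.21 in KO (limma adjusted p = 0.0314 and 0.00469). Its difference between the genotypes in smoke went from -0.10 to -0.0035 (limma adjusted p = 0.995). What sets the length trend was not tested.

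**Figure D5:**
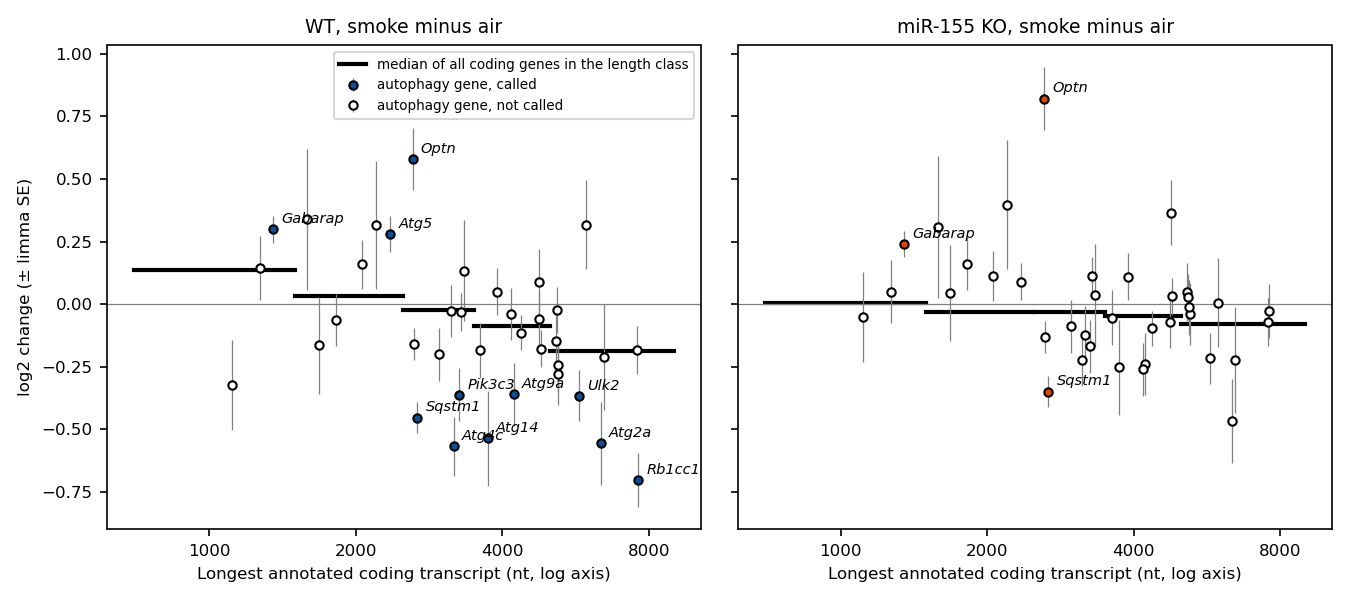
Log2 change from air to smoke, with the limma standard error, of the 37 autophagy genes against the length of their longest coding transcript (log axis), in WT (left) and miR-155 KO (right); filled points passed and black lines are the medians of all coding genes in 5 length classes. In WT the lines step down from 0.14 to -0.19 and Rb1cc1, near the longest, is lowest; in KO they run from 0.01 to -0.08.

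Other genes of the pathway were taken from 5 lists of neighbouring steps, to be read against the 22.4% of all genes called in WT (9.66% higher, 12.8% lower) and 15.5% in KO. Of 17 measured core and ER-side factors, 0 passed in WT (limma, 0 at unadjusted p under 0.05), and 1 rose in KO: Trp53inp1, a p53-induced protein that binds Atg8 proteins, by 0.82 (limma adjusted p = 0.00213). Of 19 genes for fusion with the lysosome, 5 rose and 1 fell in WT (31.6% called, against 22.4% of all genes). Rab7, the small GTPase of late endosomes, rose by 0.35, the SNARE genes Snap29 by 0.33 and Stx7 by 0.29, and the phosphoinositide phosphatase gene Inpp5e fell by 0.95. In KO 2 rose and 1 fell (15.8% called, against 15.5% of all genes), namely Rab7 (0.31), Stx7 (0.28) and Inpp5e (-0.52), and the last of these and Stx7 missed the threshold without KO air mice IIIb2, IIIb3 and IIIb4. The Inpp5e call in KO was also lost without IIIb4, IVa2, IVb2 or IVb4 alone.

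Of 14 mitophagy genes, 1 passed in each genotype, both of them receptors on the mitochondrial surface: Bnip3l fell by 0.33 in WT and Fkbp8 fell by 0.32 in KO. The Fkbp8 call was lost without the same 3 KO air mice. Of 18 receptors for ER, iron and other cargo, 3 rose and 4 fell in WT (38.9% called, against 22.4% of all genes). Lgals3, a galectin that marks damaged lysosomes, rose by 0.53 and the ER receptor gene Tex264 by 0.43, while Wdfy3, a scaffold for protein aggregates, fell by 0.50 and the ER receptor gene Atl3 by 0.42. In KO Lgals3 (0.27), Tex264 (0.38) and Wdfy3 (-0.33) passed in the same directions (16.7% called, against 15.5% of all genes). Lgals3 missed after quantile normalization (limma adjusted p = 0.0762).

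Of 24 TFEB-family and upstream regulator genes, 4 rose and 2 fell in WT, a share of 25% that is near the 22.4% of all genes. Zkscan3, a zinc-finger repressor of autophagy genes, fell by 0.64 and the kinase gene Dapk1 by 0.47. Bcl2l1, whose product binds beclin 1, rose by 0.85. Bcl2 was at 0 to 8 reads in WT air, with 4 libraries at 0, and at 8 to 42 reads in WT smoke. In KO Foxo3 (0.51) and Prkaa1 (0.36), a catalytic subunit gene of AMPK, rose, and Dapk1 (-0.33), Zkscan3 (-0.37) and Tfe3 (-0.27) fell. This was 20.8% of the list, against 15.5% of all genes. The Foxo3 and Prkaa1 calls were lost without KO air mice IIIb2, IIIb3 and IIIb4. Between genotypes, 0 genes of the 5 lists passed in air (limma, 8 at unadjusted p under 0.05), against 0.416% of all genes. In smoke 2 passed, from lists of 17, 19, 14, 18 and 24 genes, against 1.58% of all genes. Dapk1 was higher in KO by 0.40 (limma adjusted p = 0.00452). Stbd1, a glycogen-binding receptor gene, had 3 to 9 reads in KO smoke and 24 to 65 in WT smoke (limma adjusted p = 0.00626). In air Stbd1 had 4 to 71 reads in KO (median 14) and 27 to 42 in WT (median 36).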

How the data were processed

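PolyA RNA of sorted alveolar macrophages was sequenced from 20 mice, 5 in each of 4 groups, with TruSeq libraries made from 25 ng of RNA, per the labels' protocols. The deposited values are log2 CPM per gene, in the form that voom gives (0.5 read added to each count), and reads were aligned with STAR 2.6.0c to GRCm38.p6 and processed with limma, per the submitters' processing notes. For the counting tool, annotation, strand setting and filter, nothing is given in the sources used here. Whole reads were recovered from 100% of values at a tolerance of 0.001 and gave totals of 6885680 to 11952088 reads per library; counting error was largest for Atg10, with 27 reads in its lowest library.

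Groups came from the sample titles. The test was limma 3.58.1 (R 4.3.3) on the deposited log2 values as they stand, with a mean per group over all 20 libraries, empirical Bayes moderation with a mean trend, 5 contrasts, and Benjamini-Hochberg adjustment over 13225 genes at 0.05; changes are on the log2(reads + 0.5) scale. All groups shared each gene's variance. Its SE is therefore the same for the WT and KO smoke changes and does not show the wider spread of KO air. The fit was tested on simulated data with the same dispersion for all genes and groups and with changes in WT smoke only. It called 17.9% of changes of 0.3 log2 units, 86.6% of those of 0.5 and 100% of those of 1.0. In the simulation 13025 of 13225 genes had no change, whereas 22.4% of all genes were called in WT smoke. The adjustment depends on how many genes change, so these shares do not give the sensitivity of the WT test. The wider spread of KO air was not simulated, so the shares found in KO cannot be read from the simulation either. Each mouse occurs once, so no pairing was used. The autophagy genes and all lists were chosen with earlier results of these data known. Every autophagy gene is accounted for; values per mouse are given for the genes called (at most the 8 of smallest p per comparison) and the most expressed gene of each role, and up to 4 called genes per further list are named. Lengths, 3′ UTRs and near copies (blastn 2.17.0, at least 95% identity over 200 nucleotides) came from GENCODE M21. Alternatives covered the variance model, filters, offsets, scaling, library weights, left-out libraries and, added after the data were seen, removal of the trend on transcript length.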

Additional observations from a re-analysis of the deposited data

Results flagged for a closer look

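In 10 of 148 sets of 5 values (37 genes in 4 groups), 1 mouse stood apart from the other 4 by more than Dixon's 95% limit, and chance alone flags about 1 set in 20. All values here are log2 CPM. Among genes that passed a test, Optn in WT smoke mouse IIb3 was low at 5.2237, with the other 4 at 5.53 to 5.60, and Atg14 in WT smoke mouse IIb1 was low at 3.5688, with the others at 4.17 to 4.37. Rb1cc1 in KO air mouse IIIb1 was high at 6.1745, with the others at 5.57 to 5.73.

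In the air groups, Ambra1 was high in WT mouse Ib2 at 6.0312 (others 5.60 to 5.70) and Atg12 was high in WT mouse Ib1 at 5.8531 (others 5.43 to 5.55). Ulk1 was high in KO air mouse IIIb4 at 6.0568 (others 5.44 to 5.57), and Atg7 was high in KO air mouse IIIb3 at 7.2255 (others 6.84 to 6.95). In the smoke groups, Atg101 was low in WT mouse IIa5 at 4.5925 (others 5.16 to 5.31), Atg4a was high in KO mouse IVa2 at 3.5419 (others 3.05 to 3.19), and Atg16l1 was low in KO mouse IVb2 at 5.4743 (others 5.73 to 5.82). The Optn calls under smoke held with each of the 20 mice left out in turn.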

How the results depend on the processing

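No value that passed a test changed sign under any setting run. In WT smoke the count of 11 called autophagy genes lay between 9 and 14 under 14 other settings and between 9 and 11 with each mouse left out, and 7 of the 11 genes passed under all of them. Atg14 missed with no mean trend in the variance (limma adjusted p = 0.0605), and Atg14, Atg9a, Ulk2 and Atg2a with the length trend removed. In KO smoke the count of 3 was 5 with only genes of mean log2 CPM of at least 1 or at least 3 (Atg12 and Atg2a added). It was 4 with quantile normalization, with median centring and with the length trend removed (Atg12 added each time). It was 3 to 6 with each mouse left out (6 without KO air mouse IIIa5). All 3 genes called in KO passed under every setting. Between genotypes in air the count of 0 was 0 to 2 with each mouse left out (2 without IIIa5).

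Between genotypes in smoke the count of 1 was 0 with no mean trend, with the letter of the mouse code as a covariate, with voom weights and with the length trend removed. It was 2 with quantile normalization, with only the groups compared and without KO air mice IIIb2, IIIb3 and IIIb4, 3 with median centring, 5 with array weights, and 0 to 2 with each mouse left out. The test of the difference of responses gave 0 to 1 with each mouse left out. The causes were not tested. Quantile normalization moved the median over the 37 genes from -0.15 to -0.07 in WT smoke and from -0.03 to 0.02 in KO smoke. No paired analysis was possible because each mouse code occurs once.

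The genes with fewest reads were the least precise: Atg4a and Atg10 had SE of 0.26 and 0.28 on the log2 scale, against 0.05 for Gabarap. The letters in the mouse codes are not explained in the labels.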
